A study of Caenorhabditis elegans with 24 samples.

Results

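The glutathione S-transferase genes of *C. elegans* were followed in whole day 3 adults of 3 strains, each with and without auxin. The members are all rows of the gene table whose symbol is gst- followed by a number, 44 genes of 21982. RAGA-1::AID Somatic worms carry the edited allele raga-1(wbm40), which adds a degron and EmGFP to the endogenous RAGA-1, an activator of the growth kinase complex mTORC1. They also carry ieSi57 on chromosome II, which drives TIR1::mRuby from the eft-3 promoter in somatic cells and not in the germline. RAGA-1::AID Neuronal worms carry the same raga-1(wbm40) allele with wbmIs83 on chromosome IV, which drives 3xflag::TIR1 from the rab-3 promoter in neurons. Wild type worms (N2 Bristol) carry neither. TIR1 is a plant enzyme that marks degron-tagged proteins for destruction when auxin is present, and each AID strain is 1 line. From day 1 of adulthood worms were kept on plates with 0.15 mM auxin or on control plates with its solvent ethanol, here called no auxin. Each of the 6 groups had 4 libraries of polyadenylated RNA, each from about 400 whole animals. Per the study's text, the Somatic strain loses some of its tagged protein even without auxin, so its no auxin worms are not a fully undepleted control.

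Glutathione S-transferases join the small peptide glutathione to electrophilic molecules, such as drugs, plant toxins and the products of lipid oxidation, which makes them easier to neutralise and export. In *C. elegans* many of these genes are switched on by SKN-1, the worm counterpart of the mammalian Nrf oxidative stress factors, and gst-4 is the usual reporter of SKN-1 activity. The family also holds enzymes with metabolic work, such as the zeta class, which takes part in the breakdown of tyrosine. Whole-animal RNA mixes all tissues, the germline and embryos held in the mother, so fewer cells of a type and less RNA per cell cannot be told apart.

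Values are normalized counts, that is, gene counts divided by the authors' size factor of each library. Recovered depth was 16982857 to 41671106 reads per library. The targeted gene raga-1 had 1494 ± 93.7 in Somatic auxin worms against 1687 ± 44.7 in Somatic no auxin worms, and 1617 ± 48.1 in Neuronal auxin worms against 1675 ± 54.9 in Neuronal no auxin worms (SD, n = 4 each). In wild type it had 2842 ± 66.6 with auxin and 2838 ± 174 without (SD, n = 4 each). Degradation acts on the protein, so this RNA does not measure it. Markers of intestine, neurons, muscle, epidermis, germline and oocytes were all above 0 in each group, while 2 or 3 of 5 sperm markers and up to 2 of 5 embryonic gut lineage markers were at 0 in a group. Replicates were biological samples collected on separate days. Of the 13150 genes tested, 99 (0.753%) had replicates 2 and 3 above replicates 1 and 4 in all 6 groups and 141 (1.07%) had them below, so values within each pair of replicates are given beside the calls.

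All 44 members had a row, and 32 passed the filter of at least 10 normalized counts in 4 or more libraries. The 12 that did not pass were gst-2, gst-8, gst-11, gst-14, gst-17, gst-18, gst-23, gst-25, gst-31, gst-34, gst-37 and gst-40. Their means over the 24 libraries lay between 0.210 and 6.86 and their highest single value was 13.9, in gst-11. None was at 0 in all 24 libraries. The family is unevenly placed in the genome (WBcel235), with 25 of 44 members on chromosome II, 9 on V, 4 on IV, 3 on X, 2 on I and 1 on III. Runs of neighbours at most 10 kb apart account for many of them. One run of 9 members lies at II:13608154-13630887 and another of 9 at II:15163817-15185389, beside runs of 4 at II:4879891-4893573 and of 3 at IV:10139380-10143099.

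Per kb of exon, gst-1 and gst-7 were far above the rest, with 5116 and 4681 normalized counts per kb over all 24 libraries. gst-1 (III:9059331-9060181) is a pi class enzyme, and gst-7 lies at II:4882062-4883358. Next came gst-10 with 919.6 per kb and gst-4 with 693.5 per kb, followed by gst-13 with 516.9 and gst-36 with 443.5 per kb. In wild type no auxin worms gst-1 at 4955 ± 196 and gst-7 at 4644 ± 336 per kb were within the sum of their SDs of each other, as were gst-10 at 900 ± 153 and gst-4 at 675 ± 209 per kb (SD, n = 4). The 2 leading genes were also among the steadiest, with median coefficients of variation within groups of 3.82% for gst-1 and 2.77% for gst-7, against 19.6% for gst-10 and 28.9% for gst-4. By mean normalized count, 2 members were above 1000, 12 between 100 and 1000, 14 between 10 and 100, and 16 at 10 or less.

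**Figure D1:**
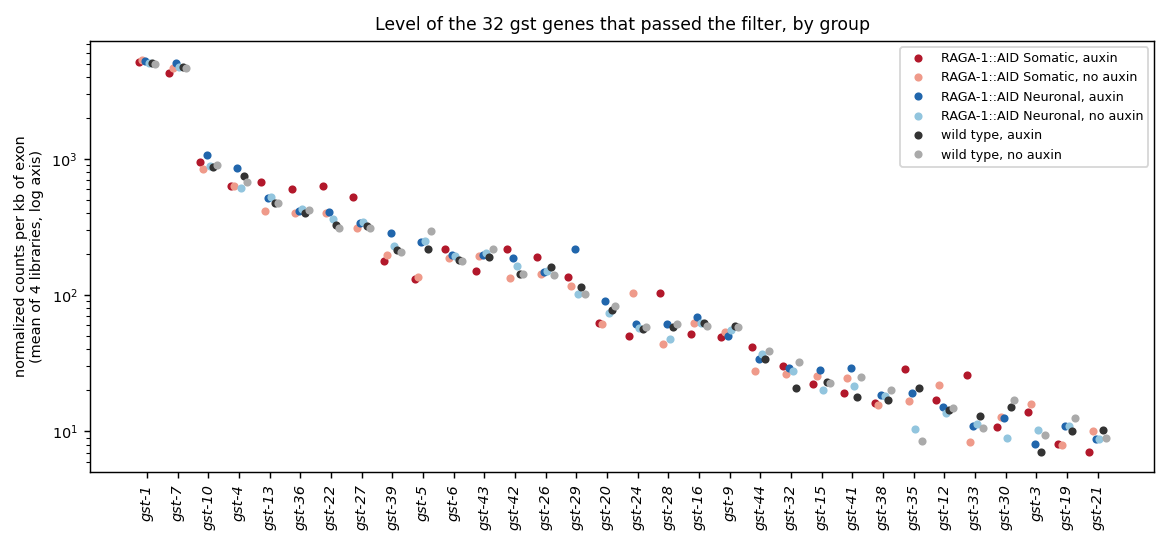
Mean level of the 32 gst genes that passed the filter, in normalized counts per kb of exon on a log axis, with 1 point for each of the 6 groups of 4 libraries. gst-1 and gst-7 stand above all others in every group (5116 and 4681 per kb over all libraries), and the next gene, gst-10, has 919.6.

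Summed over the family, normalized counts were 11398 ± 375 in Somatic auxin worms and 10945 ± 238 in Somatic no auxin worms (SD, n = 4 each). The sums ranged from 11003 to 11862 with auxin and from 10634 to 11194 without, so that they overlapped. In Neuronal worms the whole sums did not overlap, with 11604 to 12230 with auxin against 10673 to 11535 without. In wild type they overlapped, with 10142 to 11442 with auxin against 10393 to 11361 without. Without gst-1 and gst-7 the Somatic sums no longer overlapped, with 4169 to 4676 in Somatic auxin worms against 3234 to 3701 in Somatic no auxin worms. The same sums overlapped in Neuronal worms, with 3901 to 4582 with auxin against 3463 to 4082 without, and in wild type, with 3289 to 3862 with auxin against 3330 to 3967 without. gst-1 and gst-7 supplied 61.6% ± 0.78 of the family sum in Somatic auxin worms and 68.1% ± 1.1 in Somatic no auxin worms, and 64.3% to 66.7% in the other groups (mean of 4). These sums are given as descriptions without a test.

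Somatic RAGA-1 degradation was followed by higher RNA of 6 members and lower RNA of 1. The 6 that rose were gst-36, gst-27, gst-28, gst-42, gst-33 and gst-13, by log2 fold changes of 0.58 to 1.5, and the 1 that fell was the abundant gst-7, by a small amount. Members were called at a false discovery rate of 0.01 (limma p adjusted by Benjamini-Hochberg over all 13150 genes tested). That makes 7 of 32 members called (21.9%), against 35.6% of all genes tested in this comparison. Higher calls were 18.8% of the members, close to the 16.0% of all genes, and the 1 lower call was 3.12% of the members against 19.6% of all genes. The share of members called higher was thus near the background and is no result about the family. The median log2 fold change of the members was 0.02, and that of all genes tested was 0.01, with 18 members positive and 14 negative. Libraries of the groups did not overlap for 5 members that were higher (15.6%, against 17.2% of all genes) and 1 that was lower (3.12%, against 20.5%).

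gst-36 (X:9861646-9862960) had the smallest adjusted p. It had 446, 463, 424 and 477 normalized counts in Somatic auxin libraries, against 313, 288, 301 and 306 in Somatic no auxin libraries. All auxin libraries were above all no auxin libraries, and also above the 16 libraries of the other strains. The log2 fold change was 0.58 ± 0.07 (SE), a 1.5-fold rise (limma, adjusted p = 2.28e-06). It was 0.58 in replicates 1 and 4 alone and 0.59 in replicates 2 and 3 alone. Its exons overlap those of scav-5 on the other strand, a gene of the CD36 scavenger receptor family, which had 99.8 ± 25.2 with auxin and 50.8 ± 17.2 without (SD, n = 4 each, limma adjusted p = 0.0083). The libraries were strand-specific (dUTP), but the sources used here do not state whether Salmon used the strand, and if it did not, the 2 genes may share reads.

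gst-27 and gst-28 are direct neighbours on the minus strand of chromosome II, at II:15164890-15165731 and II:15166194-15167577. gst-27 had 433, 337, 360 and 417 normalized counts in Somatic auxin libraries and 249, 187, 207 and 279 in Somatic no auxin libraries, without overlap. This is a log2 fold change of 0.75 ± 0.15 (SE), with adjusted p = 2.82e-04 in limma, and of 0.69 and 0.82 within the pairs of replicates 1 and 4 and replicates 2 and 3. gst-28 had 98.6, 63.7, 66.2 and 90.1 in Somatic auxin libraries and 39.7, 16.6, 40.6 and 36.5 in Somatic no auxin libraries, also without overlap. The rise was 2.44-fold, or 1.29 ± 0.25 on the log2 scale (SE), with adjusted p = 2.82e-04 in limma, and was 1.29 and 1.28 within the pairs. This rise starts from a low mean, as gst-28 had 33.4 ± 11.3 in Somatic no auxin worms. In wild type it had 44.8 ± 6.6 with auxin and 47.2 ± 9.3 without (SD, n = 4 each). The difference between the strains without auxin was -0.55 on the log2 scale and was not called (limma adjusted p = 0.48). Replicates 2 and 3 alone did not carry the call for gst-28, where limma gave adjusted p = 0.032.

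gst-42 (X:11726264-11727936) encodes the zeta class enzyme maleylacetoacetate isomerase, which acts late in tyrosine breakdown. It had 253, 198, 199 and 234 normalized counts in Somatic auxin libraries and 144, 98.7, 110 and 192 in Somatic no auxin libraries. The groups did not overlap, but no auxin replicate 4 at 192 came close to the lowest auxin library at 198. The log2 fold change was 0.73 ± 0.15 (SE, limma adjusted p = 4.64e-04), with 0.55 in replicates 1 and 4 and 0.92 in replicates 2 and 3. Quantile normalization and a fit on the Somatic libraries alone each ended the call, at adjusted p = 0.012 and 0.017 in limma. Replicates 1 and 4 alone did not carry it either (limma adjusted p = 0.031). The other zeta-like member gst-43 (I:2901325-2903006) did not pass the test. It had 119, 82.6, 106 and 108 in Somatic auxin libraries and 117, 146, 151 and 120 in Somatic no auxin libraries, a log2 difference of -0.36 ± 0.14 (SE) that missed the threshold (limma adjusted p = 0.043).

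The other called members were less steady. gst-33 (V:3467451-3468562) is a low gene, with 26.9, 31.2, 14.7 and 9.71 normalized counts in Somatic auxin libraries and 11.1, 6.46, 2.39 and 6.76 in Somatic no auxin libraries. The groups overlapped, and the log2 fold change was 1.5 ± 0.39 (SE, limma adjusted p = 0.0032), with 0.83 and 2.16 within the pairs of replicates. Leaving out auxin replicate 1, auxin replicate 2 or no auxin replicate 3 each ended the call, with limma adjusted p of 0.014 to 0.018. gst-13 (II:9231457-9232344) had 743, 367, 449 and 570 in Somatic auxin libraries and 324, 279, 277 and 423 in Somatic no auxin libraries, where auxin replicate 2 lay below no auxin replicate 4. Its log2 fold change was 0.68 ± 0.20 (SE, limma adjusted p = 0.0070), with 0.81 and 0.54 within the pairs, and any of 5 Somatic libraries left out ended the call, at most adjusted p = 0.040 without auxin replicate 1.

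gst-7 was the 1 member that fell. It had 3189, 3145, 3181 and 3200 normalized counts in Somatic auxin libraries and 3320, 3417, 3668 and 3551 in Somatic no auxin libraries, without overlap. The log2 fold change was -0.13 ± 0.04 (SE, limma adjusted p = 0.0073), or 0.912-fold, and -0.10 and -0.16 within the pairs. The call was lost in 13 of 38 alternatives, among them quantile normalization, where limma gave adjusted p = 0.20, and the fit without no auxin replicate 3, where it gave 0.034. The direction was the same in all 38.

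**Figure D2:**
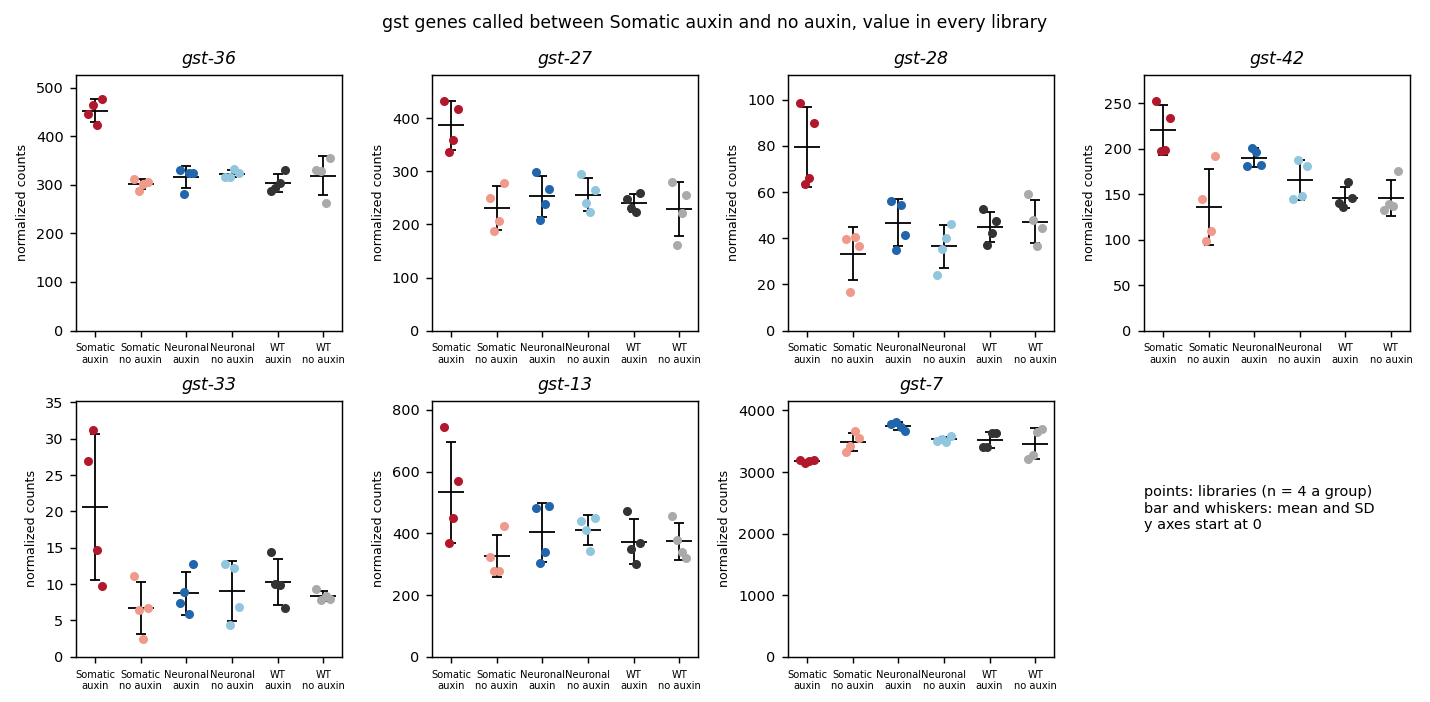
Normalized counts of the 7 members called between Somatic auxin and no auxin worms, in all 24 libraries, with the mean and SD of each group of 4. gst-36, gst-27 and gst-28 are higher in all 4 Somatic auxin libraries than in all 4 Somatic no auxin libraries, and gst-7 is lower, with 3145 to 3200 against 3320 to 3668.

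Markers of several tissues moved in the same comparison, and their part in these results was not tested. Of all genes tested, 16.0% were called higher and 19.6% lower here, and the marker counts stand beside those shares. The sum of 7 intestinal markers was 45967 to 60294 in Somatic auxin libraries and 27462 to 34281 in Somatic no auxin libraries, with 4 of the 7 called higher. All 5 oocyte markers were called lower, with sums of 98530 to 104922 in Somatic auxin libraries against 116225 to 117692 in Somatic no auxin libraries, and 4 of 7 germline markers were called lower. Sums of the 5 muscle markers were 30985 to 33586 in Somatic auxin libraries and 24838 to 27212 in Somatic no auxin libraries, with unc-15 and unc-54 called higher and myo-3 and mup-2 called lower. Sums of the 5 embryonic gut lineage markers were 180 to 207 in Somatic auxin libraries and 95.2 to 115.3 in Somatic no auxin libraries. Most of that sum is elt-7, with 163 ± 14.6 in Somatic auxin worms and 93.9 ± 11.9 in Somatic no auxin worms (SD, n = 4 each), and the other marker tested, end-3, was not called (limma adjusted p = 0.61). Neuronal markers had sums of 6161 to 6290 in Somatic auxin libraries against 5355 to 5656 in Somatic no auxin libraries. Of the 7, 1 was called higher and 1 lower (28.6%, against 35.6% of all genes in either direction). The sums of the 5 epidermal markers overlapped, at 5344 to 5741 in Somatic auxin libraries and 4426 to 5685 in Somatic no auxin libraries. Of the 4 epidermal markers tested, 1 was called lower and 0 higher.

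gst-4, gst-10 and gst-1 did not pass the test in Somatic worms. gst-4 (IV:10142225-10143099) had 456, 565, 480 and 362 normalized counts in Somatic auxin libraries and 741, 273, 431 and 407 in Somatic no auxin libraries. No auxin replicate 1 was the highest and no auxin replicate 2 the lowest of the 8. The log2 difference was 0.08 with a 95% interval of -0.52 to 0.68 (limma adjusted p = 0.83), which spans sizeable changes in both directions. The exons of gst-4 overlap those of dhs-12 on the same strand. gst-10 (V:2561690-2564645), which conjugates the lipid oxidation product 4-hydroxynonenal, had 544, 711, 927 and 535 in Somatic auxin libraries and 521, 686, 713 and 487 in Somatic no auxin libraries. Each auxin library was above the no auxin library of the same number, by a log2 difference of 0.16 with a 95% interval of -0.23 to 0.54 (limma adjusted p = 0.51). This fit has no term for the replicate number, which gst-10 followed in all 6 groups, so the interval includes that spread. Over 38 alternatives in limma, edgeR and DESeq2 its adjusted p ranged from 0.027 to 0.99, and 0 called it. gst-1 had 3997, 3843, 3652 and 3866 in Somatic auxin libraries and 4174, 3983, 3836 and 3871 in Somatic no auxin libraries, a log2 difference of -0.05 with a 95% interval of -0.13 to 0.04 (limma adjusted p = 0.38).

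A further 4 members, gst-44, gst-24, gst-22 and gst-43, had an adjusted p between 0.01 and 0.05 in limma. gst-44 (V:16390891-16392490), an omega class member, had 53.8, 37.9, 33.6 and 45.8 normalized counts in Somatic auxin libraries and 33.3, 24.9, 29.9 and 25.7 in Somatic no auxin libraries, which did not overlap (log2 difference 0.56 ± 0.19, SE, adjusted p = 0.019, and 0.0081 with a replicate block). In wild type no auxin worms gst-44 had 40.0 ± 5.5, close to the 42.8 ± 8.9 of Somatic auxin worms (SD, n = 4 each). gst-22 (V:16231032-16232282) had 497, 545, 235.5 and 546 in Somatic auxin libraries and 338, 258, 298 and 274 in Somatic no auxin libraries. Auxin replicate 3 was the lowest of these 8 libraries and the other auxin libraries were the highest. Its log2 difference of 0.57 had adjusted p = 0.041 in limma, adjusted p = 0.0074 with a replicate block and adjusted p = 6.87e-04 without auxin replicate 3. gst-24 (II:13610443-13611366) had 21.9, 52.8, 31.5 and 41.6 in Somatic auxin libraries and 31.8, 155, 68.1 and 51.4 in Somatic no auxin libraries, where no auxin replicate 2 stood far above the rest (log2 difference -0.86, limma adjusted p = 0.036). Without no auxin replicate 2 the difference for gst-24 was -0.44 (limma adjusted p = 0.20), without no auxin replicate 1 it was -1.19 and passed (limma adjusted p = 0.0037), and DESeq2 called it lower (adjusted p = 0.0071). gst-22, gst-24 and, further on, gst-5, gst-6, gst-26, gst-29, gst-35 and gst-39 were chosen for description after their values were seen.

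After neuronal RAGA-1 degradation no member was called in the main fit, which has no term for the replicate number. This is 0 of 32 members, against 0.441% of all genes tested, with 3 members (9.38%, against 14.5% of all genes) at an unadjusted p under 0.05 in limma. DESeq2 called 1 member, gst-29, edgeR called 0, and with the replicate number as a block gst-29 was called in limma (adjusted p = 0.0018) and in edgeR (adjusted p = 0.0010). Those settings also called more of all genes. DESeq2 called 176 higher and 44 lower and limma with the block 189 and 42, against 46 and 12 in the main fit. gst-29 (II:15168538-15169861) had 95.1, 177, 182 and 156 normalized counts in Neuronal auxin libraries and 53.7, 75.1, 74.0 and 81.6 in Neuronal no auxin libraries, without overlap. The log2 difference was 1.06 ± 0.24 (SE, limma adjusted p = 0.023, DESeq2 adjusted p = 9.08e-04), with 0.87 in replicates 1 and 4 and 1.26 in replicates 2 and 3. In Somatic worms gst-29 had 73.7, 121, 86.2 and 101 with auxin and 65.1, 63.7, 134 and 60.8 without (log2 difference 0.30, limma adjusted p = 0.32), and in wild type 66.9 to 91.4 with auxin and 58.4 to 86.3 without. The difference between the Neuronal and wild type responses of gst-29 was 0.89 on the log2 scale and missed the threshold (limma adjusted p = 0.61), as did that between the Somatic and Neuronal responses (-0.77, limma adjusted p = 0.10).

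Groups did not overlap for 2 members that were higher in Neuronal auxin worms, gst-29 and gst-7 (6.25%, against 5.96% of all genes), and for no member that was lower (against 4.81%). gst-7 had 3782, 3814, 3725 and 3673 in Neuronal auxin libraries and 3500, 3542, 3492 and 3581 in Neuronal no auxin libraries, a log2 difference of 0.09 (limma adjusted p = 0.30). gst-4 had 785, 506, 729 and 485 in Neuronal auxin libraries and 551, 268, 401 and 558 in Neuronal no auxin libraries. It was higher in 3 of 4 same-numbered pairs, with a log2 difference of 0.52 and a 95% interval of -0.08 to 1.12 (limma adjusted p = 0.43). gst-10 had 656, 771, 1030 and 638 with auxin and 540, 681, 763 and 587 without, higher in 4 of 4 same-numbered pairs (log2 difference 0.25, 95% interval -0.13 to 0.64, limma adjusted p = 0.58). Over 38 alternatives in limma, edgeR and DESeq2 the adjusted p of gst-10 ranged from 0.016 to 0.88 here, and 0 called it. gst-42 had 181, 201, 197 and 182 with auxin and 145, 188, 148 and 181 without (log2 difference 0.21, limma adjusted p = 0.57). Over the 32 members 21 log2 differences were positive and 11 negative, with a median of 0.09 beside one of about 0 for all genes tested (-0.001).

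**Figure D3:**
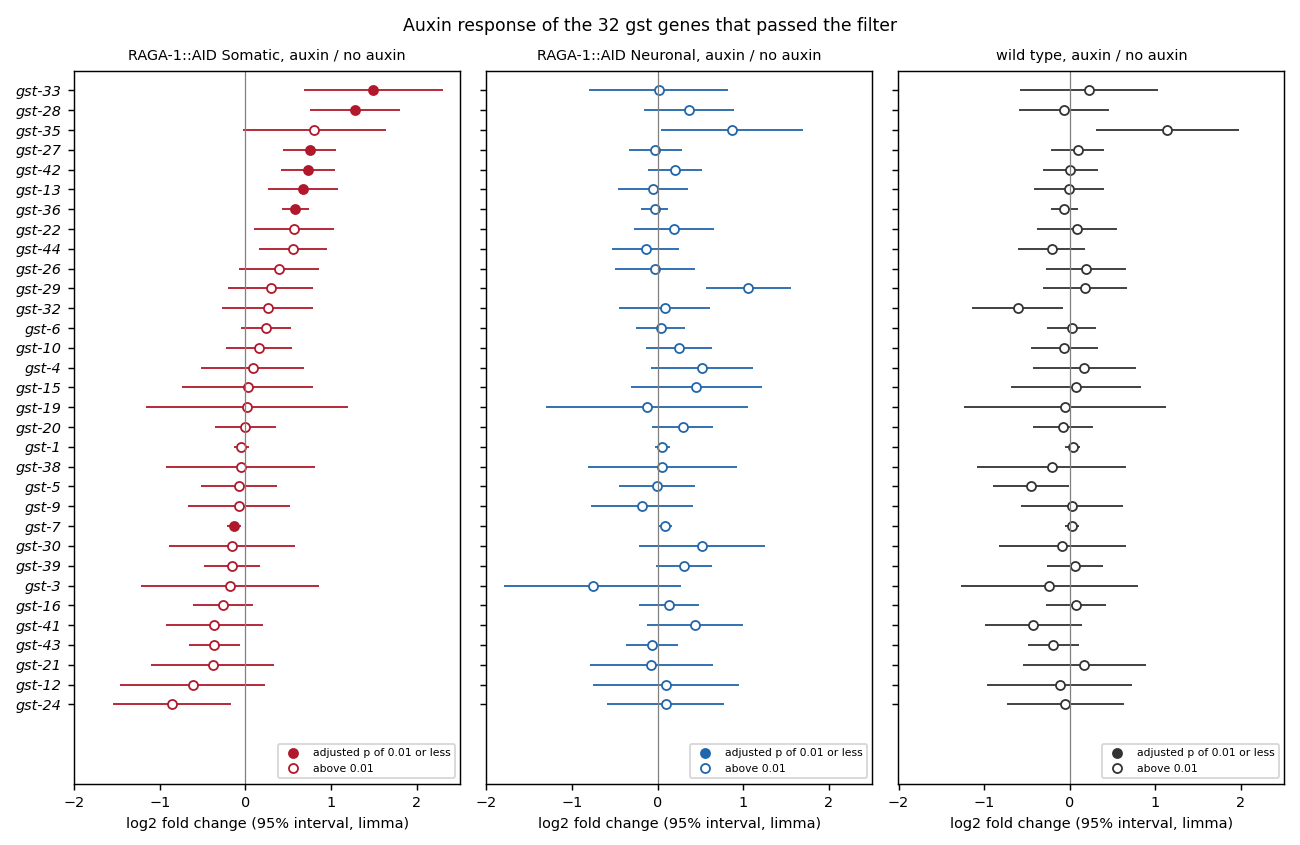
Log2 fold change of the 32 tested members, auxin over no auxin, in Somatic, Neuronal and wild type worms, with 95% intervals from limma (n = 4 libraries a group) and filled points for an adjusted p of 0.01 or less. Filled points occur in Somatic worms alone, 6 to the right of 0 and gst-7 just left of it. The Neuronal point farthest right is gst-29, at 1.06.

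Auxin on wild type worms called no member, against 0% of all genes tested. At an unadjusted p under 0.05, limma gave 3 members (9.38%) and 303 genes in all (2.30%). No member had libraries without overlap in either direction, against 0.951% of all genes higher and 0.776% lower. gst-35 (II:15183807-15185389), a low gene, had 12.7, 7.74, 14.9 and 28.8 normalized counts in wild type auxin libraries and 8.31, 2.60, 6.32 and 8.76 in wild type no auxin libraries. Its log2 differences with auxin were 0.80 in Somatic, 0.87 in Neuronal and 1.14 in wild type worms, and none passed the test (limma adjusted p = 0.10, 0.32 and 1.00).

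Without auxin, neither AID strain had a called member against wild type in the main fit. Of all genes tested, 0.213% were called between Somatic and wild type and 0.00760% between Neuronal and wild type. At an unadjusted p under 0.05, limma gave 6 members for Somatic worms (18.8%, against 9.77% of all genes) and 1 for Neuronal worms (3.12%, against 4.97%). gst-5 (II:10950352-10951603) came closest, with 90.5, 91.4, 98.0 and 114 normalized counts in Somatic no auxin libraries, against 246, 232, 173 and 207 in wild type no auxin libraries. The log2 difference was -1.11 ± 0.21 (SE, limma adjusted p = 0.013), and on recovered reads DESeq2 called it lower (adjusted p = 1.68e-04) while edgeR did not. With a replicate block gst-5 was called lower in limma (adjusted p = 0.0027) and in edgeR (adjusted p = 0.0031). All 8 Somatic libraries, with or without auxin, had 65.0 to 125.5 normalized counts of gst-5, and the 16 libraries of the other strains had 125.9 to 246.2. gst-5 lies 349.8 kb from raga-1 on chromosome II, the chromosome that also carries ieSi57 in the Somatic strain, and the part of the strain background in its level was not tested. Its exons overlap those of nos-1 on the other strand, which had 1510 ± 108 in Somatic no auxin worms and 1491 ± 49.3 in wild type no auxin worms (SD, n = 4 each). Groups did not overlap for 1 member higher in Somatic worms, gst-12 (3.12%, against 1.62% of all genes), and for 2 lower, gst-5 and gst-44 (6.25%, against 2.53%).

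**Figure D4:**
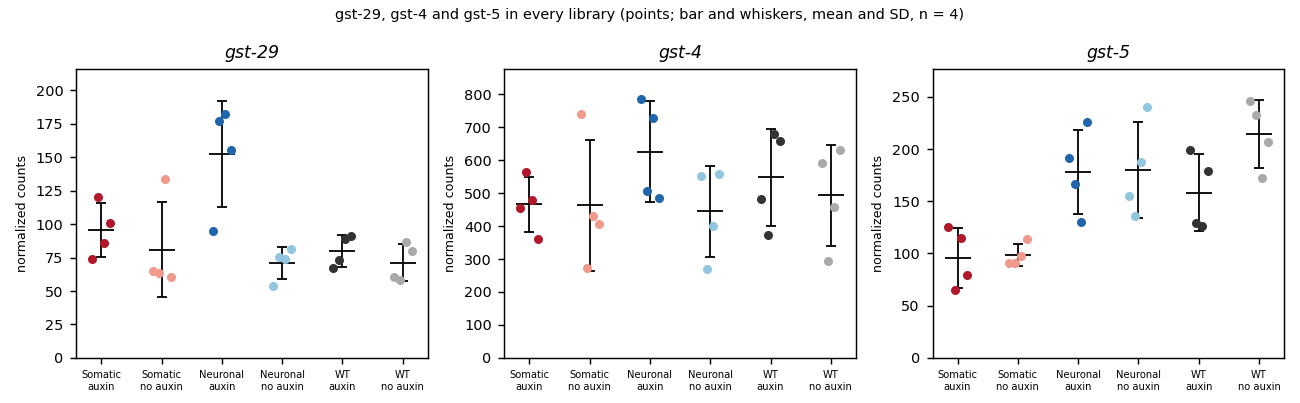
Normalized counts of gst-29, gst-4 and gst-5 in all 24 libraries, with the mean and SD of each group of 4. The group mean of gst-29 is highest in Neuronal auxin worms (95.1 to 182), with overlap with some Somatic libraries, gst-4 spreads widely within groups, and gst-5 is lowest in the 8 Somatic libraries (65.0 to 125.5).

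A call in Somatic worms does not show that the response differed from that of the other strains, so the differences between responses were tested. Between the Somatic and Neuronal responses 2 members passed, 6.25% against 11.2% of all genes. They were gst-36, with a difference of 0.62 ± 0.11 on the log2 scale (SE, limma adjusted p = 3.72e-04), and gst-7, with -0.22 ± 0.05 (SE, limma adjusted p = 0.0066). The call of gst-7 was lost in 16 alternatives and that of gst-36 in 2, each pair of replicates alone, where limma gave adjusted p = 0.021 and 0.044. gst-36 had 331, 282, 325 and 324 in Neuronal auxin libraries and 316, 317, 332 and 324 in Neuronal no auxin libraries. gst-27 was just outside the threshold (0.78, limma adjusted p = 0.011) and passed in 10 alternatives, among them DESeq2 (adjusted p = 0.0023). With a replicate block limma called 4 members here, gst-27 (adjusted p = 8.49e-05) and gst-13 (adjusted p = 0.0061) beside gst-36 and gst-7. Without the block gst-28, gst-33, gst-13 and gst-42 had limma adjusted p of 0.056 to 0.083. Between the Somatic and wild type responses 2 members passed as well, 6.25% against 16.8% of all genes. They were gst-36 (0.65 ± 0.11, SE, limma adjusted p = 1.40e-04) and gst-28 (1.35 ± 0.36, SE, limma adjusted p = 0.0074). The call of gst-28 was lost in 14 of its alternatives, up to adjusted p = 0.14 in limma on replicates 2 and 3 alone. With a replicate block limma called 5 members, adding gst-27, gst-13 and gst-42 (adjusted p = 2.54e-04, 0.0070 and 0.0082). The share of all genes called with the block is not given for these differences. The counts of 4 and 5 with the block thus have no background beside them and are no result about the family. No member passed between the Neuronal and wild type responses, against 0.0152% of all genes, and 2 members (6.25%, against 6.62% of all genes) had an unadjusted p under 0.05 there in limma.

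In no genomic run were all tested members called. In the run at II:15163817-15185389, 7 of 9 members were tested in Somatic worms, of which 6 had positive log2 fold changes and 2 were called, the neighbours gst-27 and gst-28, with a median of 0.39. Of all genes tested, 16.0% were called higher in this comparison, and an effect of the run was not tested. gst-26 beside them had 148, 78.6, 117 and 177 normalized counts in Somatic auxin libraries and 144, 80.3, 72.9 and 96.0 in Somatic no auxin libraries, and gst-39 in the same run had 107 to 141 with auxin and 125 to 167 without. In the run at II:13608154-13630887, 6 of 9 members were tested, with 3 positive, 3 negative, none called and a median of -0.13. In the run of gst-6, gst-7, gst-8 and gst-9, gst-7 fell while its neighbour gst-6 (II:4879891-4881105) had 188, 157, 144 and 183 in Somatic auxin libraries and 111, 177, 139 and 146 in Somatic no auxin libraries. Neighbours in a run may share sequence, and how the authors' counting split reads between similar members was not tested.

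Some members followed the replicate number in every group. gst-10 was higher in replicates 2 and 3 than in replicates 1 and 4 in all 6 groups, as in wild type no auxin worms with 658 and 798 in replicates 2 and 3 against 556 and 577 in replicates 1 and 4. gst-27 went the other way in all 6 groups, with 337 and 360 in replicates 2 and 3 against 433 and 417 in replicates 1 and 4 of Somatic auxin worms. Replicates 2 and 3 were also below replicates 1 and 4 in 5 groups for gst-13, and in 4 groups for gst-12, gst-22, gst-26 and gst-38. The share of all genes with the pattern in 4 or 5 groups was not counted, so these members cannot be set beside it. RNA was extracted 2 replicates at a time, but no source used here names the replicates that went together, and these differences are tied to the replicate number only. Each group holds all 4 numbers.

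**Figure D5:**
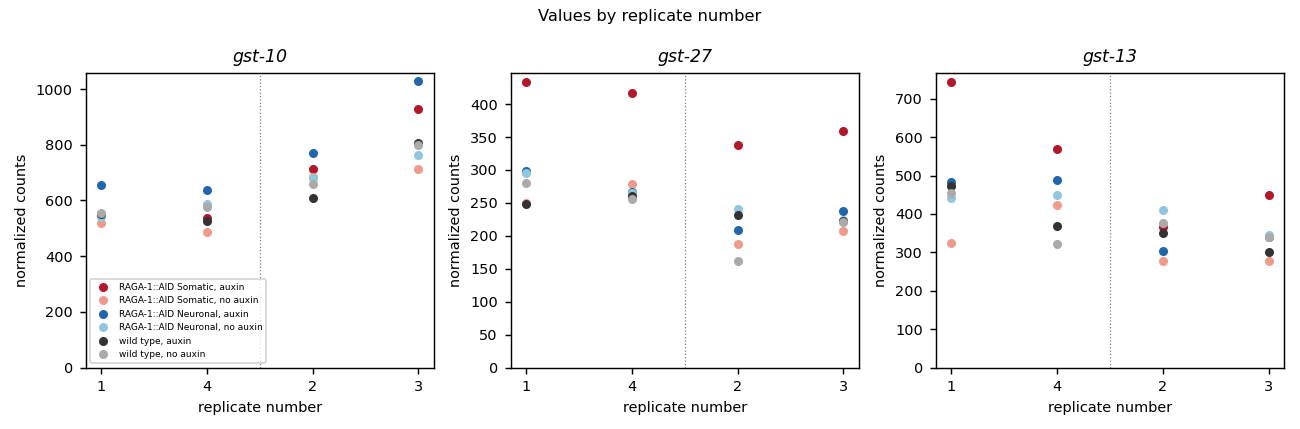
Normalized counts of gst-10, gst-27 and gst-13 by replicate number, in the order 1, 4, 2, 3, with 1 point per library and colours for the 6 groups. gst-10 is higher in replicates 2 and 3 in all 6 groups and gst-27 is lower there, while the Somatic auxin libraries of gst-27 stay above all others at each number.

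Of 24 listed genes for synthesis, recycling and other uses of glutathione, 23 were tested in Somatic worms, with 2 called higher and 2 called lower (17.4%, against 35.6% of all genes) and a median log2 fold change of 0.08, beside 0.01 for all genes. With a replicate block limma called 7, in a fit that called 2461 of all genes higher and 2865 lower. gpx-7, a glutathione peroxidase gene, had 40.7 ± 11.8 in Somatic auxin worms and 20.1 ± 9.96 in Somatic no auxin worms (log2 fold change 1.07, limma adjusted p = 0.0043). gstk-1, a kappa class transferase gene, had 425 ± 87.7 with auxin and 324 ± 33.4 without (0.37, limma adjusted p = 0.0070). gss-1, which encodes the second enzyme of glutathione synthesis, had 1719 ± 69.0 with auxin and 1980 ± 87.4 without (-0.20, limma adjusted p = 1.19e-04), and the glutaredoxin gene glrx-3 had 2043 ± 16.8 with auxin and 2233 ± 85.2 without (-0.13, limma adjusted p = 7.61e-04). gcs-1, the rate-limiting enzyme of glutathione synthesis and a SKN-1 target, had 3091 ± 146 with auxin and 3156 ± 37.2 without (SD, n = 4 each, limma adjusted p = 0.49). None of the 23 was called in Neuronal worms (against 0.441% of all genes), where gcs-1 had 3292 ± 174 with auxin and 3182 ± 78.3 without (limma adjusted p = 0.59).

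Of 12 listed genes that set SKN-1 activity or are needed for gst induction, 11 were tested, with 2 called higher and 3 lower in Somatic worms (45.5%, against 35.6% of all genes) and 0 called in Neuronal worms (against 0.441%). The median log2 fold change in Somatic worms was -0.08. sgk-1, a kinase gene of the insulin pathway, had 486 ± 64.0 in Somatic auxin worms and 285 ± 37.2 in Somatic no auxin worms (0.77, limma adjusted p = 2.35e-05). elt-3, which encodes a GATA factor of the epidermis, had 154 ± 41.2 with auxin and 86.7 ± 18.6 without (0.79, limma adjusted p = 0.0042). wdr-23, which encodes the adaptor that targets SKN-1 for destruction, had 2936 ± 84.9 with auxin and 3261 ± 46.8 without (-0.15, limma adjusted p = 2.45e-04), and pmk-1, a p38 kinase gene, had 494 ± 24.6 with auxin and 574 ± 30.3 without (-0.22, limma adjusted p = 0.0044). xrep-4 was the other gene called lower, by a log2 fold change of -0.09. skn-1 itself had 7073 ± 554 in Somatic auxin worms and 7449 ± 180 in Somatic no auxin worms (limma adjusted p = 0.11), and 7445 ± 88.0 in Neuronal auxin worms and 7710 ± 144 in Neuronal no auxin worms (limma adjusted p = 0.61). All ± values in this and the preceding paragraph are SDs of 4 libraries.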

How the data were processed

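Polyadenylated RNA of whole day 3 adults was sequenced in 24 libraries, 4 for each of 6 groups taken from the sample labels. Per the submitters' processing notes and the study's methods, read quality was examined by the authors in FastQC 0.11.5, MultiQC and STAR 2.7.0 alignments, Salmon 1.4.0 estimated transcript abundance on WBcel235 (Ensembl release 104), and tximport gave gene counts under R 4.1.2. Libraries were strand-specific, and the sources used here do not give the strand setting of Salmon. In the deposited table each value is a normalized signal, a gene count over the size factor that DESeq2 1.34.0 gave its library. Because the values were whole multiples of 1 step in each library (within 0.01), reads were recovered for the count tests.

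Symbols, positions and exon lengths came from Ensembl release 115. Genes with at least 10 normalized counts in 4 libraries (13150) were tested with limma 3.58.1 in R 4.3.3, with an intensity trend, on log2(normalized count + 1), with 1 mean for each of 6 groups over all 24 libraries and Benjamini-Hochberg adjustment, at an adjusted p of 0.01 or less. Fold changes are on that log2 scale, which understates the change of low genes. The authors used DESeq2 on counts. DESeq2 1.42.0 and edgeR 4.0.16 on recovered reads were alternatives here, with TMM and quantile scaling, other filters and pseudocounts, a replicate block and each library left out.

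Values in every library are given for members called in any comparison (up to 10 in each direction in Somatic worms), and for gst-1, gst-4, gst-7, gst-10, gst-42, gst-43 and gst-44 whatever their values. The members, lists and tests were chosen with earlier results of these data known. Per the study's methods each replicate had its own collection day and its own thaw of worms, and nothing there ties libraries of 1 number to 1 day across groups. Same-numbered libraries were checked by correlating their deviations from group means. Numbers were held to pair libraries where all 4 same-numbered pairs correlated above 0.1, a limit that was a choice. This was so for wild type auxin and no auxin and for Neuronal and wild type no auxin, where the block left 0 members called. Even so, Neuronal no auxin replicate 4 correlated at 0.113 with wild type no auxin replicate 1 and at 0.102 with its replicate 4. For the other comparisons the lowest correlation was 0.079 (Somatic auxin), 0.093 (Neuronal auxin) and -0.008 (Somatic against wild type), and values with the block are given where they change a call. In the Somatic auxin and Neuronal auxin comparisons each auxin library still correlated best with the no auxin library of its own number. The main fit leaves this pairing out, so its calls there need to be read beside those with the block. p-values measure the spread between biological samples of 1 line. Figures were drawn with Python 3.11.15 and matplotlib 3.10.9.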

Additional observations from a re-analysis of the deposited data

Results flagged for a closer look

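In 6 of 96 sets of 4 libraries, formed by 16 of the members, 1 library stood apart from the other 3 by Dixon's test at 95%, about the 1 in 20 that chance gives. gst-36 had 281.7 normalized counts in Neuronal auxin replicate 2, below 323.8 to 330.6 in the other 3 libraries. gst-22 had 235.5 in Somatic auxin replicate 3, below 497.1 to 546.3, and gst-29 had 133.9 in Somatic no auxin replicate 3, above 60.8 to 65.1. gst-24 had 37.9 in Neuronal auxin replicate 1, below 46.9 to 48.3. gst-43 had 101.8 in wild type auxin replicate 3, below 138.8 to 146.3, and gst-42 had 175.3 in wild type no auxin replicate 4, above 133.0 to 138.8.

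The response to auxin differed between strains for 3 members by a test of the difference itself in limma. Between the Somatic and Neuronal responses 6.25% of the members passed, against 11.2% of all genes. Between the Somatic and wild type responses it was 6.25%, against 16.8%. gst-36 differed between Somatic and Neuronal worms by 0.62 on the log2 scale (adjusted p = 3.72e-04) and between Somatic and wild type worms by 0.65 (adjusted p = 1.40e-04). gst-7 differed between Somatic and Neuronal worms by -0.22 (adjusted p = 0.0066), and gst-28 between Somatic and wild type worms by 1.35 (adjusted p = 0.0074). The call of gst-7 was lost in 16 alternatives, that of gst-28 in 14, and those of gst-36 in 2 and 1.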

How the results depend on the processing

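gst-36 and gst-27 were called higher in Somatic auxin worms in all 38 alternatives, gst-28 in 37, gst-42 in 35, gst-33 in 30 of 37, gst-13 in 29 and gst-7, lower, in 25. No called value changed sign. Against 6 higher and 1 lower in Somatic worms, quantile normalization gave 3 and 3, the fit on the compared libraries alone 3 and 0, replicates 2 and 3 alone 3 and 0, and a log2 fold change of at least 1 gave 2 and 0. Over all genes the main fit called 2105 higher and 2575 lower. Quantile normalization called 1281 and 2444, the compared libraries alone 1314 and 1502, and replicates 2 and 3 alone 889 and 718. The lower count of members was 0 with no filter, with TMM, in edgeR and in replicates 1 and 4 alone, 2 in DESeq2 and 3 at an adjusted p of 0.05. Over all genes the lower counts were 2425 with no filter, 2317 with TMM, 2285 in edgeR, 1798 in replicates 1 and 4 and 2523 in DESeq2. In Neuronal worms DESeq2 and an adjusted p of 0.05 each gave 1 higher member instead of 0. Over all genes DESeq2 called 176 higher and 44 lower there, against 46 and 12 in the main fit. Between Somatic and wild type worms without auxin the compared libraries alone, DESeq2 and an adjusted p of 0.05 each gave 1 instead of 0. The 2 calls between the Somatic and Neuronal responses became 1 with no filter, TMM or quantile normalization, 0 in either pair of replicates or at a log2 difference of at least 1, and 3 in DESeq2. The 2 between the Somatic and wild type responses became 1 with no filter, quantile normalization, the compared libraries or a log2 difference of at least 1, 0 in replicates 2 and 3, 4 in DESeq2 and 6 at an adjusted p of 0.05. Of the other glutathione genes, 4 by the main test, the compared libraries gave 2, replicates 1 and 4 gave 2, replicates 2 and 3 gave 1, an adjusted p of 0.05 gave 9 and a log2 fold change of at least 1 gave 1. Of the SKN-1 regulators, 5 by the main test, these gave 2, 3 and 1, and 0 at a log2 fold change of at least 1. The cause of these changes was not tested beyond the smaller number of libraries where some were left out.

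Leaving out each library in turn gave 4 to 7 higher and 0 to 2 lower members in Somatic worms, 0 to 1 higher and 0 to 0 lower in Neuronal worms, 0 to 0 in wild type, 0 to 1 for Somatic and 0 to 0 for Neuronal against wild type without auxin, 1 to 3 for each difference from the Somatic response, and 0 to 0 for Neuronal against wild type responses. The lists gave 2 to 5 glutathione genes and 2 to 6 SKN-1 regulators.

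With a replicate block, in limma and in edgeR, Somatic worms had 8 higher and 1 lower member, Neuronal worms 1 higher (gst-29), Somatic against wild type without auxin 1 (gst-5), the Somatic less Neuronal response 4, the Somatic less wild type response 5 and the other glutathione genes 7. Over all genes, limma with the block called 2461 higher and 2865 lower in Somatic worms, against 2105 and 2575 in the main fit. In Neuronal worms it called 189 and 42, against 46 and 12. Counts over all genes with the block are not given here for the other comparisons. A term for replicates 1 and 4 against 2 and 3, chosen after seeing the data, also gave 1, 1, 4 and 5 for the Neuronal, baseline and 2 response comparisons. Of 20 libraries compared, 17 correlated best with the library of their own number.

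Members with few counts limit what can be seen: 12 members were not tested, and for members at 10 to 30 normalized counts such as gst-33 the 95% intervals span more than 1 on the log2 scale.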
